A study of Homo sapiens with 9 samples.

Results

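The 10 genes described here, FBXO32, KLHL24, PDK4, CCNG2, BCL6, CITED2, YPEL2, YPEL3, YPEL5 and GADD45A, are genes that FOXO transcription factors induce or that rise when growth factors are withdrawn. They were followed through every probe set annotated to exactly 1 of them, which gave 34 probe sets of 54675 on the array, for 10 genes of 19775 that have such a probe set. MCF10A, a non-tumorigenic human breast epithelial line that needs EGF to grow, was measured on 9 one-colour Affymetrix expression arrays in 3 groups of 3 replicates. The vector group carried empty pBabe retrovirus, the group labelled ERBB2 carried pBabe-ErbB2, and the EGF group carried empty pBabe and received EGF at 50 ng/ml for 2 h before harvest. All 3 groups had been infected and then moved to medium with 2% horse serum and no EGF. Growth medium held 5% horse serum, EGF at 20 ng/ml, hydrocortisone, cholera toxin and insulin, and the labels do not say which of the last 3 stayed in the assay medium. The labels call the replicates biological and name no separate infections, which means that the p-values below rest on the spread among these arrays alone.

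FOXO factors sit at the end of the PI3K and AKT pathway. When growth factor receptors are active, AKT phosphorylates FOXO proteins and holds them in the cytoplasm, and when the signal stops they enter the nucleus and switch on genes of protein breakdown, fuel choice, cell cycle exit and stress defence. In mammary epithelial cells EGF is a main input of this pathway, and the vector cells here were kept without it.

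The promoters of the members were looked at first, because a FOXO site can be read there as letters. Windows from 250 bases before to 50 after a gene's start were given by RefSeq (GRCh38.p14) for 8 of the 10 members, as 11 windows of 300 bases. The FOXO core GTAAACA, on either strand, was in 1 of these 11 windows and in 3.42% of all 35116 windows of 300 bases. The related ATAAACA was in 0 of the 11 and in 4.24% of all. The single match was in YPEL3, where its first base is the annotated start itself. The 3 YPEL genes are shown because they belong to 1 protein family and fell together, with 250 bases before the start and 7 from it, in lower case with the GTAAACA match in capitals.
YPEL3 chr16:30096207-30096463 (-): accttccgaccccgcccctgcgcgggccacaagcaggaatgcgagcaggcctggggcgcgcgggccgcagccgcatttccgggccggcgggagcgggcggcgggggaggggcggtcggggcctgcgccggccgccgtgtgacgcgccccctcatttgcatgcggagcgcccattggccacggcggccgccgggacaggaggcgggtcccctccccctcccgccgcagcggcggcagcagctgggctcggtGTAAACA
YPEL2 chr17:59331405-59331661 (+): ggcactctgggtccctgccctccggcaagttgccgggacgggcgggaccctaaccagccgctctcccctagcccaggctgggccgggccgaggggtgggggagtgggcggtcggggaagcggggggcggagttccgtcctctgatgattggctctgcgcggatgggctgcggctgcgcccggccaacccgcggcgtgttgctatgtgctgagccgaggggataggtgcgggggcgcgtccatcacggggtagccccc
YPEL5 chr2:30146757-30147013 (+): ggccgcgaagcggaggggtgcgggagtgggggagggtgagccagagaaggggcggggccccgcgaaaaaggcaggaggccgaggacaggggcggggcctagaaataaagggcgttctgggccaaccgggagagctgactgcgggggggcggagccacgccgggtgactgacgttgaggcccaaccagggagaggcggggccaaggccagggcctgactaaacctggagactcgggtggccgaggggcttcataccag
The YPEL2 and YPEL5 windows hold neither motif. GC content was 79.0% in the YPEL3 window, 75.0% in YPEL2 and 70.0% in YPEL5, against a median of 58.7% over all windows, and lay between 50.3% and 69.3% in the 8 other windows of the members. A match is only a description of letters, and FOXO sites outside these windows were not searched.

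Array facts that touch every result below were these. Median signals lay between 19.9 and 20.2 on vector arrays, 17.9 and 20.1 on arrays labelled ERBB2 and 15.6 and 16.9 on EGF arrays. The brightest ERBB2 probe set read 174 ± 48.0 in vector cells and 98.8 ± 23.1 (SD, n = 3) in cells labelled ERBB2, lower (limma adjusted p = 0.006756), a dimmer one rose from 12.6 to 35.6 (adjusted p = 0.008824) and the third differed by 0.10 (adjusted p = 0.8236), so the label is not settled by these probe sets and is kept as a label. The 5'/3' ratio of the ACTB control was 0.737 ± 0.0513 (SD, n = 3) in the arrays labelled ERBB2, 0.379 ± 0.0554 in vector and 0.444 ± 0.0634 in EGF arrays, and its part in the results was not tested. All 4 pan-epithelial markers and the 4 of 6 basal mammary markers with a single-gene probe set passed the filter on low signals, so both lists were measured. The basal markers summed to 15318 to 17372 on vector, 7563 to 8023 on labelled ERBB2 and 12192 to 14501 on EGF arrays, and these 4 did not move alike. KRT14 read 2640.3, 149 and 1758 and KRT5 11864, 6227 and 8847 in the same order, while CDH3 (942, 894 and 749.5) was called with EGF alone and ITGA6 rose with EGF (688, 592 and 1680.0). The pan-epithelial markers summed to 7081 to 7517, 10072 to 11438 and 8729 to 9112, with EPCAM and KRT18 called higher in both groups than in vector, KRT8 lower in labelled ERBB2 and CDH1 lower in both. Of the markers of other cell types, those of fibroblasts summed to 1357 to 1509, 394.7 to 576.2 and 501.6 to 557.6 in the same order. Of these 6 markers 3 passed the filter, DCN carried most of the sum, and COL3A1, LUM and PDGFRB had group means of at most 13.6. Leukocyte markers (1 of 5 past the filter), endothelial markers (2 of 4) and luminal hormone receptors (1 of 2) summed to at most 209.4, 127 and 32.1 on any array. Of those past the filter, CD14 lay between 153 and 189.9 in group means and was not called against vector, nor was ESR1, PECAM1 rose from 29.0 to 90.1 in labelled ERBB2 (adjusted p = 7.803e-05), and KDR fell from 42.5 to 11.5 and 6.89; PTPRC, CD3E, VWF, CDH5 and PGR did not pass it. In bulk RNA fewer cells of a kind and less RNA per cell cannot be told apart, and the part of these markers in the results was not tested.

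In the vector cells, kept without EGF, 9 of the 10 members stood above both other groups, and GADD45A alone stood below them. A gene's brightest single-gene probe set, by its average over the 9 arrays, stands for the gene, and signals are the authors' linear MAS5 signals. Changes are differences in log2(signal + 16), which understate falls to low signals, with the SE and Benjamini-Hochberg adjusted p of limma fitted over 32768 probe sets. Against vector, 9 of 10 representing probe sets were called lower in the arrays labelled ERBB2 (adjusted p under 0.05) and 1 higher, where 25.0% of all 13726 representing probe sets were called lower and 20.8% higher. With EGF the counts were again 9 lower and 1 higher, against 18.9% and 17.2% of all. All 9 falls were of at least 2-fold in both comparisons, which held for 7.04% of all representing probe sets in the arrays labelled ERBB2 and for 3.13% with EGF. For all 10 members the vector arrays did not overlap with either other group, as for 52.7% of all in labelled ERBB2 and 48.7% with EGF. The median log2 change of the 10 was -2.63 in labelled ERBB2 and -1.76 in EGF arrays, beside -0.0734 and -0.0968 over all representing probe sets. Both comparisons use the same 3 vector arrays, so their likeness is no independent evidence. The members were chosen with earlier results of these data known, so their counts here and below are a description and no independent support.

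**Figure D1:**
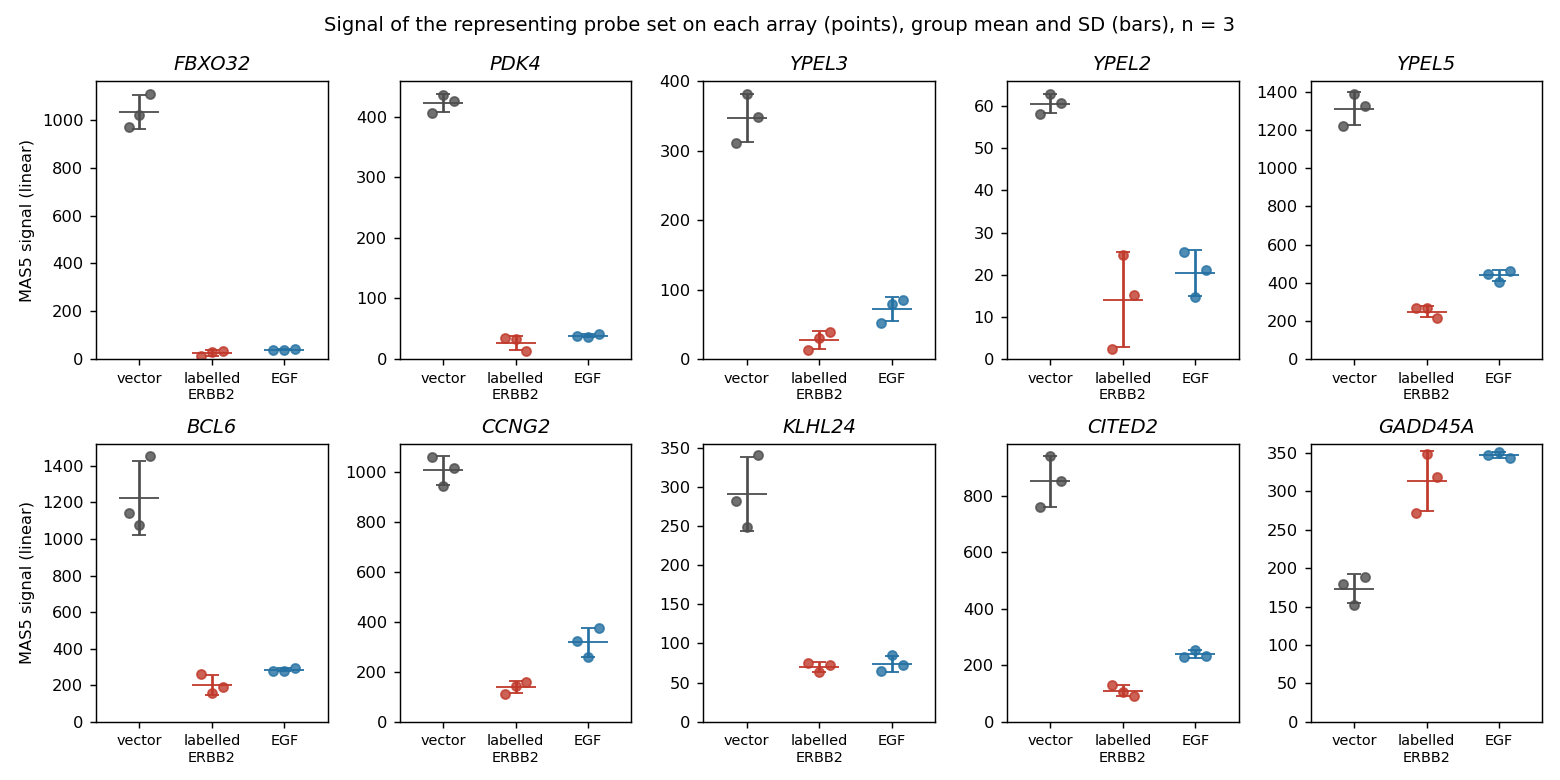
Linear MAS5 signal of the representing probe set of each member on the 9 arrays, each panel with its own axis from 0; points are arrays and bars are the group mean and SD (n = 3). The vector arrays are highest in 9 panels and lowest in the GADD45A panel, where they lie between 152.6 and 188.0.

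FBXO32, the F-box subunit of a ubiquitin ligase known from muscle atrophy, had the deepest fall of the 10. Its signals were 969.7, 1023 and 1109 in the vector arrays, 13.2, 28.5 and 33.9 in the arrays labelled ERBB2 and 39.8, 37.2 and 41.1 with EGF. No array of a treated group came near a vector array, and 2.44% of the mean vector signal was left in labelled ERBB2 and 3.81% in EGF cells. The log2 change was -4.71 ± 0.17 (SE, adjusted p = 4.093e-14) in labelled ERBB2 and -4.24 ± 0.17 (adjusted p = 6.257e-13) with EGF. Ranked over 13726 genes, this was the third lowest change in labelled ERBB2 and the lowest of all with EGF. FBXO32 has 7 probe sets, and 225328_at fell even further, with 841, 853 and 772 in vector, 6.51, 2.70 and 13.9 in labelled ERBB2 and 13.5, 5.33 and 12.3 in EGF arrays. With EGF all 7 were called lower, with changes between -5.00 and -1.10. In labelled ERBB2 6 were called, and the exception, 232729_at, went from 25.9 to 11.8 (-0.64, adjusted p = 0.1031). Which of the low signals exceed background is unknown, since no detection calls entered.

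KLHL24, a substrate adaptor of CUL3 ubiquitin ligases that controls keratin turnover in skin, fell to overlapping levels in both treated groups by its representing probe set. Signals were 282, 249 and 341 in vector, 75.0, 63.2 and 72.3 in labelled ERBB2 and 64.9, 85.4 and 71.8 in EGF arrays. The vector arrays lay above all others, while the treated groups overlapped. The log2 changes against vector were -1.82 ± 0.15 (adjusted p = 6.998e-09) and -1.76 ± 0.15 (adjusted p = 2.722e-08). Of its 5 probe sets, 4 were called lower in labelled ERBB2 and 5 with EGF. The exception in labelled ERBB2 was 206551_x_at, whose suffix marks probes that may also bind other transcripts, with a change of -0.43 (adjusted p = 0.06713).

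PDK4, a kinase that shuts pyruvate dehydrogenase and so spares glucose during fasting, had the second deepest fall of the members. Its signals were 407, 436 and 426 in vector, 34.7, 32.8 and 13.4 in labelled ERBB2 and 38.8, 36.7 and 40.9 in EGF arrays. The log2 changes were -3.39 ± 0.19 (adjusted p = 2.008e-11) and -3.002 ± 0.19 (adjusted p = 3.606e-10), rank 22 and rank 5 from the lowest of 13726 genes. A second probe set, 205960_at, also fell in both comparisons (-1.67, adjusted p = 2.414e-05, and -1.74, adjusted p = 2.71e-05). The third, 1562321_at, did not pass the filter on low signals and read 14.9 to 19.8 in vector, 3.10 to 7.21 in labelled ERBB2 and 0.914 to 6.88 in EGF arrays. By the probe sets past the filter PDK4 was low on all 6 treated arrays.

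CCNG2, an unconventional cyclin associated with cell cycle exit, kept more signal with EGF than in the arrays labelled ERBB2. Signals were 1058, 942 and 1015 in vector, 112, 144 and 158 in labelled ERBB2 and 321, 257 and 373 in EGF arrays, so that the 3 groups did not overlap. Of the mean vector signal 13.8% was left in labelled ERBB2 and 31.6% with EGF. The log2 changes against vector were -2.74 ± 0.13 (adjusted p = 2.71e-12) and -1.63 ± 0.13 (adjusted p = 1.142e-08), and as the mean of all its probe sets -1.45 and -1.07. In both comparisons 4 of its 5 probe sets were called lower, and the fifth, 1555056_at, had means of 16.6, 17.1 and 13.4 in vector, labelled ERBB2 and EGF cells and was called in neither (0.0073, adjusted p = 0.9896, and -0.16, adjusted p = 0.7572).

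BCL6, a zinc finger repressor best known from germinal centre B cells, fell to 16.6% of its mean vector signal in labelled ERBB2 and 23.3% with EGF. Signals were 1139, 1077 and 1456 in vector, 263, 157 and 189 in labelled ERBB2 and 279.9, 279 and 296 in EGF arrays. The lowest vector array was still far above the highest treated one. Changes were -2.52 ± 0.14 (adjusted p = 2.759e-11) and -2.03 ± 0.14 (adjusted p = 1.756e-09), and all 3 BCL6 probe sets were called lower in both, between -2.52 and -1.84 in labelled ERBB2 and between -2.03 and -1.77 with EGF.

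CITED2, a coactivator-binding protein that limits the hypoxia factor HIF1, followed the same order as CCNG2. Signals were 760.4, 939.9 and 853 in vector, 129, 106 and 91.9 in labelled ERBB2 and 230.3, 255 and 234 in EGF arrays, with no overlap between any 2 groups. The changes against vector were -2.80 ± 0.12 (adjusted p = 6.711e-13) and -1.76 ± 0.12 (adjusted p = 1.546e-09). A second probe set, 207980_s_at, was called lower too (-1.78 and -1.37), and 227287_at, which did not pass the filter, stayed between 2.06 and 8.48 on all 9 arrays.

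The YPEL genes encode small zinc-binding proteins of the yippee family, of which YPEL3 is linked to growth arrest. YPEL3 read 311, 381 and 348 in vector, 12.8, 30.0 and 39.4 in labelled ERBB2 and 51.9, 78.8 and 85.2 in EGF arrays. It had the deepest relative fall of the 3 in labelled ERBB2, with 7.90% of the mean vector signal left there and 20.8% with EGF, and changes of -3.11 ± 0.21 (adjusted p = 3.7e-10) and -2.06 ± 0.21 (adjusted p = 2.724e-07). Its other probe set, 232077_s_at, did not pass the filter, with 12.1 to 19.6 in vector, 1.24 to 6.83 in labelled ERBB2 and 0.745 to 12.5 in EGF arrays.

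YPEL5, a partner of the CTLH ubiquitin ligase complex, was measured by a pair of probe sets that gave one picture. The representing one read 1220.4, 1391 and 1326 in vector, 265, 267 and 214 in labelled ERBB2 and 448, 405 and 463 in EGF arrays, and the 3 groups did not overlap. Its changes were -2.33 ± 0.10 (adjusted p = 6.711e-13) and -1.55 ± 0.10 (adjusted p = 7.216e-10), and those of 222408_s_at were -2.57 and -1.78.

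YPEL2 is the member whose call rests on the lowest signals. Those of its only probe set past the filter were 58.2, 62.8 and 60.8 in vector, 2.36, 24.7 and 15.3 in labelled ERBB2 and 25.5, 14.7 and 21.0 in EGF arrays, so that the treated arrays were lower than the vector arrays but overlapped each other. The changes were -1.42 ± 0.27 (adjusted p = 0.0002388) and -1.08 ± 0.27 (adjusted p = 0.004253). With 1 added to the signal in place of 16 the fall with EGF was -1.56 and was no longer called (adjusted p = 0.05575). The change in labelled ERBB2 was -2.46 with 1 added and -0.68 with 64 added, and with EGF -0.56 with 64 added. Its 2 other probe sets did not pass the filter and read at most 15.3 on any array.

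GADD45A, a stress-induced protein of growth arrest and DNA repair that both FOXO and p53 can induce, moved against the other 9. Its single probe set read 179.7, 153 and 188 in vector, 271, 349 and 319 in labelled ERBB2 and 347, 352 and 344 in EGF arrays. All 6 treated arrays were above all 3 vector arrays, by 1.80-fold in mean signal in labelled ERBB2 and 2.00-fold with EGF. The log2 changes were 0.79 ± 0.12 (adjusted p = 1.468e-05) and 0.95 ± 0.12 (adjusted p = 3.329e-06), rank 1292 and rank 522 from the highest of 13726 genes. The EGF arrays were close to each other, within 344 to 352.

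**Figure D2:**
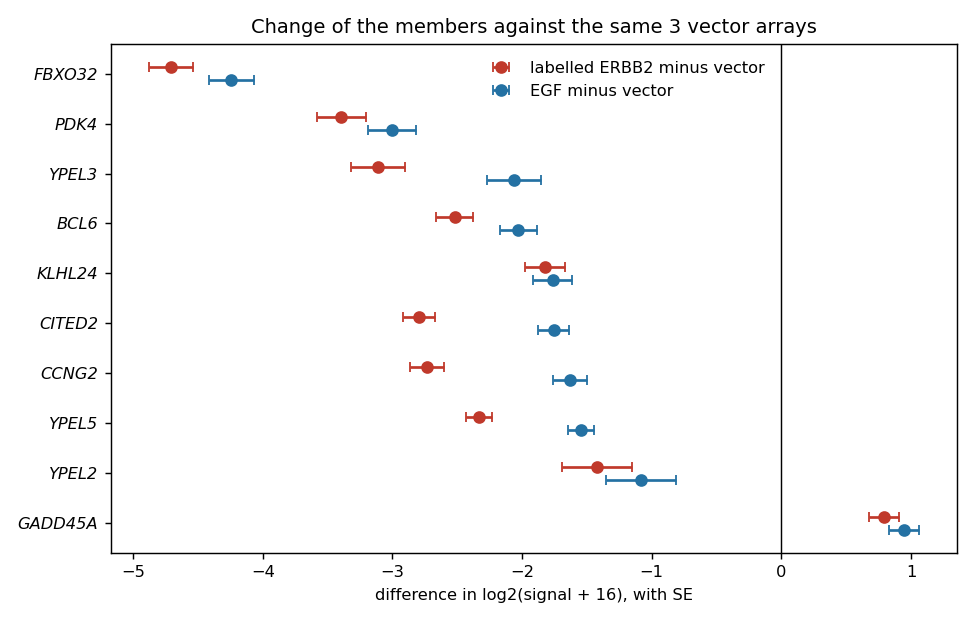
Difference in log2(signal + 16) against the vector arrays for the representing probe set of each member, with SE, for labelled ERBB2 (red) and EGF (blue). The 9 falling genes lie between -4.71 and -1.08, and GADD45A lies at 0.79 and 0.95.

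Probe sets of a gene bore out its representing probe set in most cases. Of the 34 probe sets 29 passed the filter, and of these 25 were called lower, 1 higher and 3 not in labelled ERBB2, where 21.0% of all probe sets were called lower and 17.7% higher. With EGF 27 were called lower, 1 higher and 1 not, against 15.9% lower and 12.9% higher of all. The filter keeps probe sets by their mean over all arrays, so dim ones can pass through high vector arrays, and the counts are a description. All probe sets of 1 gene share its transcripts and are not independent of each other. Over the 9 arrays the log2 values of any pair of the 9 falling genes correlated with r between 0.82 and 0.99, and GADD45A with each of them with r between -0.94 and -0.74. These 9 points form 3 groups, so the correlations mainly restate the group differences.

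**Figure D3:**
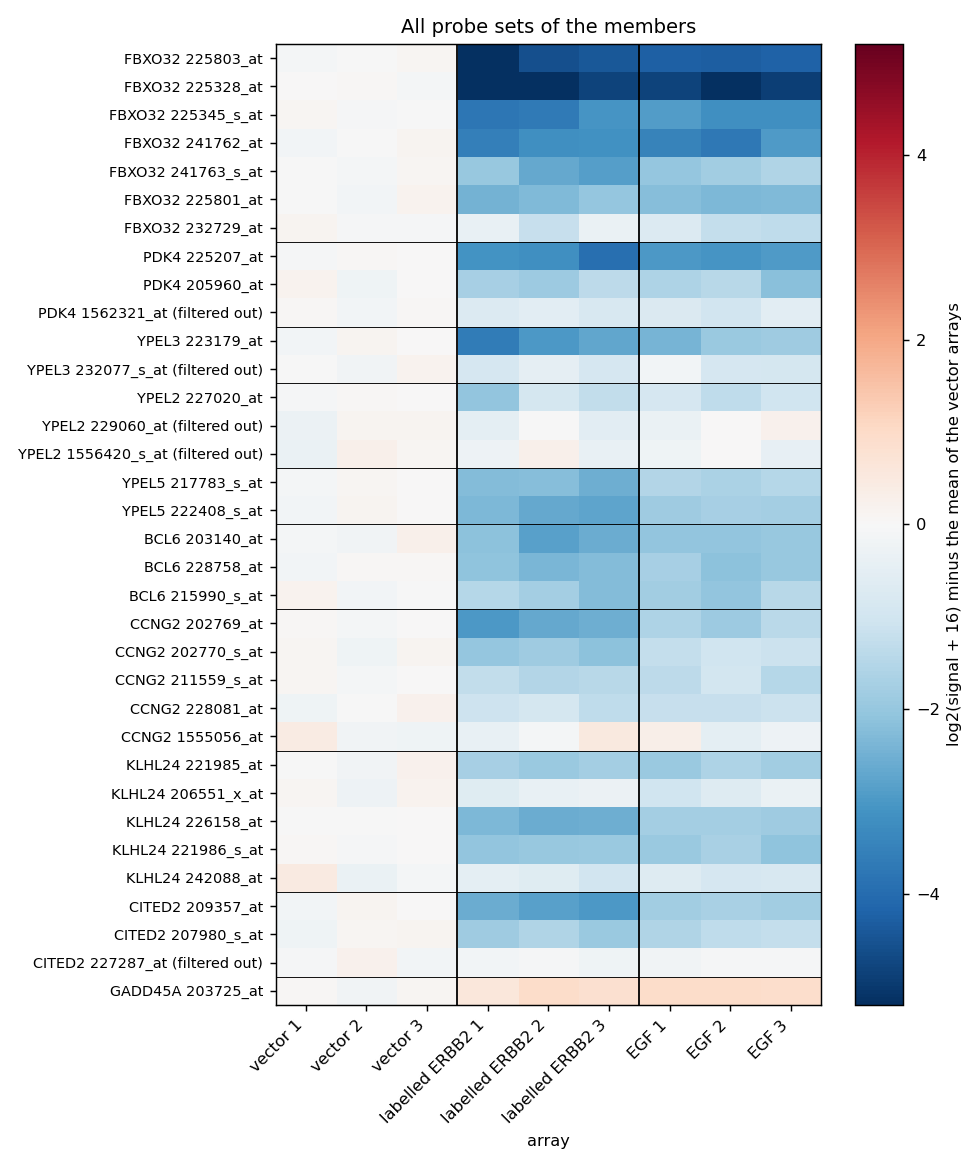
Map of all 34 probe sets (rows, by gene) on the 9 arrays (columns), coloured by log2(signal + 16) minus the mean of the vector arrays, with 5 rows marked as filtered out. Blue fills the 6 treated columns for most rows, GADD45A is the red row at the bottom, and CCNG2 1555056_at is pale throughout.

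The arrays labelled ERBB2 were also set against the EGF arrays directly, without vector as a reference. The groups differ in the virus and in 2 h of EGF, so kind and length of stimulus cannot be told apart. CCNG2, YPEL3, CITED2, YPEL5 and BCL6 were called, 5 of 10 members, where 28.8% of all representing probe sets were called. All 5 were called lower in labelled ERBB2. Of all 13726 representing probe sets, 2203 were called lower and 1754 higher. The groups did not overlap for 7 of the 10, against 43.0% of all. Over the 29 probe sets past the filter 10 were called lower and 0 higher, against 12.2% lower of all probe sets. The log2 differences were -1.11 ± 0.13 for CCNG2 (adjusted p = 2.703e-06), -1.05 ± 0.21 for YPEL3 (adjusted p = 0.0008669) and -1.04 ± 0.12 for CITED2 (adjusted p = 2.449e-06). The YPEL3 difference was -1.47 with 1 added to the signal and -0.58 with 64 added, called with both. For these 3 genes the EGF arrays held over 2 times the signal of the arrays labelled ERBB2. The difference was -0.78 ± 0.10 for YPEL5 (adjusted p = 8.375e-06), with the same size in its second probe set (-0.80, adjusted p = 4.245e-05).

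BCL6 was the weakest of these 5 calls, at -0.49 ± 0.14 (adjusted p = 0.01532). It ended without labelled ERBB2 replicate 2 (-0.33, adjusted p = 0.1041), without labelled ERBB2 replicate 3 (-0.46, adjusted p = 0.05665) and without EGF replicate 3 (-0.46, adjusted p = 0.05414), and neither other BCL6 probe set was called (-0.30 and -0.0779). For CCNG2, 202770_s_at differed alike (-0.87, adjusted p = 6.108e-05), while 211559_s_at, 228081_at and 1555056_at were not called (-0.14, 0.071 and 0.16). The mean of all 5 CCNG2 probe sets differed by -0.376 (adjusted p = 0.01594), so the size depends on the probe set. Both CITED2 probe sets past the filter were called, the second at -0.41 (adjusted p = 0.03919).

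For the other 5 members no difference between labelled ERBB2 and EGF was called by the representing probe set. The unadjusted 95% intervals of the log2 difference were -0.82 to -0.11 for FBXO32 (adjusted p = 0.05614), -0.78 to -0.0008 for PDK4 (adjusted p = 0.1464), -0.90 to 0.22 for YPEL2 (adjusted p = 0.4164), -0.38 to 0.26 for KLHL24 (adjusted p = 0.8326) and -0.39 to 0.0929 for GADD45A (adjusted p = 0.4014). FBXO32 lay near the threshold, and its difference of -0.46 became a call without labelled ERBB2 replicate 2 (-0.54, adjusted p = 0.04947) or replicate 3 (-0.62, adjusted p = 0.01513), and shrank to -0.23 without replicate 1 (adjusted p = 0.2775). One FBXO32 probe set was called, 241763_s_at (-0.71, adjusted p = 0.02971). In KLHL24 226158_at was called at -0.69 (adjusted p = 0.003429), with 27.9, 21.2 and 22.6 in labelled ERBB2 and 49.7, 48.9 and 45.8 in EGF arrays. The remaining 4 KLHL24 probe sets lay between -0.0595 and 0.25, so its probe sets disagree on this difference. An interval that includes 0 does not show that the groups were alike.

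**Figure D4:**
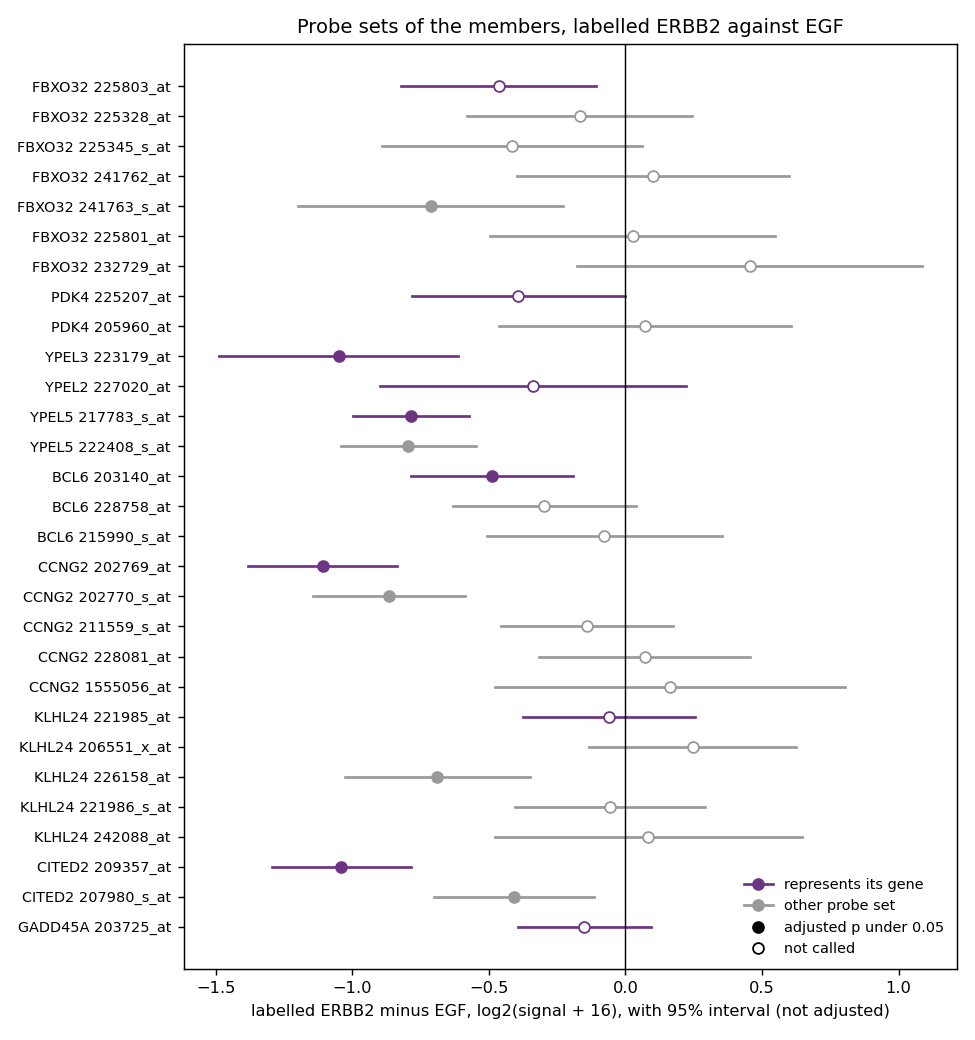
Log2 difference of labelled ERBB2 minus EGF for each of the 29 probe sets past the filter, with unadjusted 95% intervals; purple marks the probe set that represents its gene and filled points were called. The filled purple points belong to YPEL3, YPEL5, BCL6, CCNG2 and CITED2, all left of 0.

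The FOXO factors and the kinases above them were set beside their targets. FOXO3, the FOXO factor of longevity and stress defence, fell from 2384 ± 14.2 in vector to 821 ± 53.3 (SD, n = 3) in labelled ERBB2 cells and 1069 ± 44.2 with EGF, with changes of -1.52 (adjusted p = 4.85e-12) and -1.15 (adjusted p = 7.777e-10), and both its other probe sets were called lower in each comparison. FOXO1, the FOXO factor of insulin response, fell from 770.2 to 157 (-2.19, adjusted p = 2.214e-11) and 295 (-1.35, adjusted p = 5.428e-08). Of its 2 other probe sets only 1 was called lower in each comparison. SGK1, an AKT-related kinase that also acts on FOXO, changed by -1.74 (adjusted p = 5.583e-12) and -1.37 (adjusted p = 5.08e-10), whereas AKT1 itself rose by 0.54 (adjusted p = 0.0005069) and 0.39 (adjusted p = 0.01068). PIK3R1, the regulatory PI3K subunit, was lower in labelled ERBB2 (-0.81) and higher with EGF (0.31, adjusted p = 0.009296), and neither of its 2 other probe sets was called in either comparison. Of the 9 measured genes of this list of 13, 5 were called lower and 1 higher in labelled ERBB2 (median -0.40), and 4 lower and 2 higher with EGF (median -0.11). The counts in labelled ERBB2 were the same in all alternative settings, while those with EGF were 3 to 4 lower and 1 to 3 higher. With EGF only 1 was higher without a variance trend or without EGF replicate 1. At equal array medians PDPK1 was no longer called with EGF (-0.16, adjusted p = 0.2492). Over all representing probe sets 25.0% were lower and 20.8% higher in labelled ERBB2 (median -0.0734) and 18.9% and 17.2% with EGF (median -0.0968), so the EGF median of the list is close to that of all. Between the treated groups 4 of the 9 were called lower in labelled ERBB2 and 0 higher, among them PIK3R1 (-1.12), FOXO1 (-0.84) and FOXO3 (-0.38). Of all 13726 representing probe sets, 2203 were called lower there and 1754 higher. PIK3R1, FOXO1 and FOXO3 have 2 other probe sets each. Of these, both of FOXO3 and 1 of FOXO1 were called lower there, and neither of PIK3R1. The remaining FOXO1 probe set and 1 of PIK3R1 had the opposite sign.

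Other genes known as FOXO or growth factor withdrawal targets mostly fell with the members. They were listed with earlier results of these data known, so their counts are a description and no independent support. Of the 34 listed genes 31 were measured. In labelled ERBB2, 26 were called lower and 1 higher (median log2 change -1.06), while 23 were lower and 3 higher with EGF (median -0.76). Over all representing probe sets 25.0% were called lower and 20.8% higher in labelled ERBB2 (median -0.0734). With EGF these shares were 18.9% and 17.2% (median -0.0968). The deepest falls in labelled ERBB2 were those of TSC22D3, a leucine zipper protein also induced by glucocorticoids (-4.06), BTG1, an antiproliferative factor (-4.02), and TXNIP, which restrains glucose uptake (-3.57). With EGF CXCR4, a chemokine receptor (-3.17), TSC22D3 (-2.77) and BTG1 (-2.17) led. EIF4EBP1, an inhibitor of translation initiation, rose in both, from 167 ± 12.8 to 1059 ± 142 (SD, n = 3) in labelled ERBB2 (2.55) and 486 ± 52.8 with EGF (1.45). BNIP3, a mitophagy receptor that hypoxia also induces, was lower in labelled ERBB2 (-0.84) and higher with EGF (0.65), and differed directly by -1.49 (adjusted p = 2.881e-10); its other probe set was not called with EGF. KLF6, a zinc finger factor, rose with EGF by 0.27 (adjusted p = 0.01208), a call that none of its 4 other probe sets shared. Over the alternative settings 17 to 24 of the list were called lower with EGF and 2 to 3 higher, with 17 at equal array medians, where SESN3, IRS2, INSR, IGF1R, PIK3IP1 and MAP1LC3B were no longer called.

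Directly compared, 12 of these 31 genes were called lower in labelled ERBB2 than with EGF and 3 higher. Of all 13726 representing probe sets, 2203 were called lower and 1754 higher. Among the 31, TXNIP (-2.07), BTG1 (-1.85) and BNIP3 were the lowest. EIF4EBP1 (1.10), ERBB3, a receptor that FOXO induces (0.80), and BCL2L11, which encodes the death factor BIM (0.50), were the higher ones. BCL2L11 had fallen to 141 ± 19.7 with EGF and 206 ± 24.6 (SD, n = 3) in labelled ERBB2, from 496 ± 45.8 in vector. Of its 5 other probe sets 3 were called lower with EGF but only 1 in labelled ERBB2, where 1 had the opposite sign. In the direct comparison 1 of these 5 was called higher, as were 2 of the 3 other ERBB3 probe sets.

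**Figure D5:**
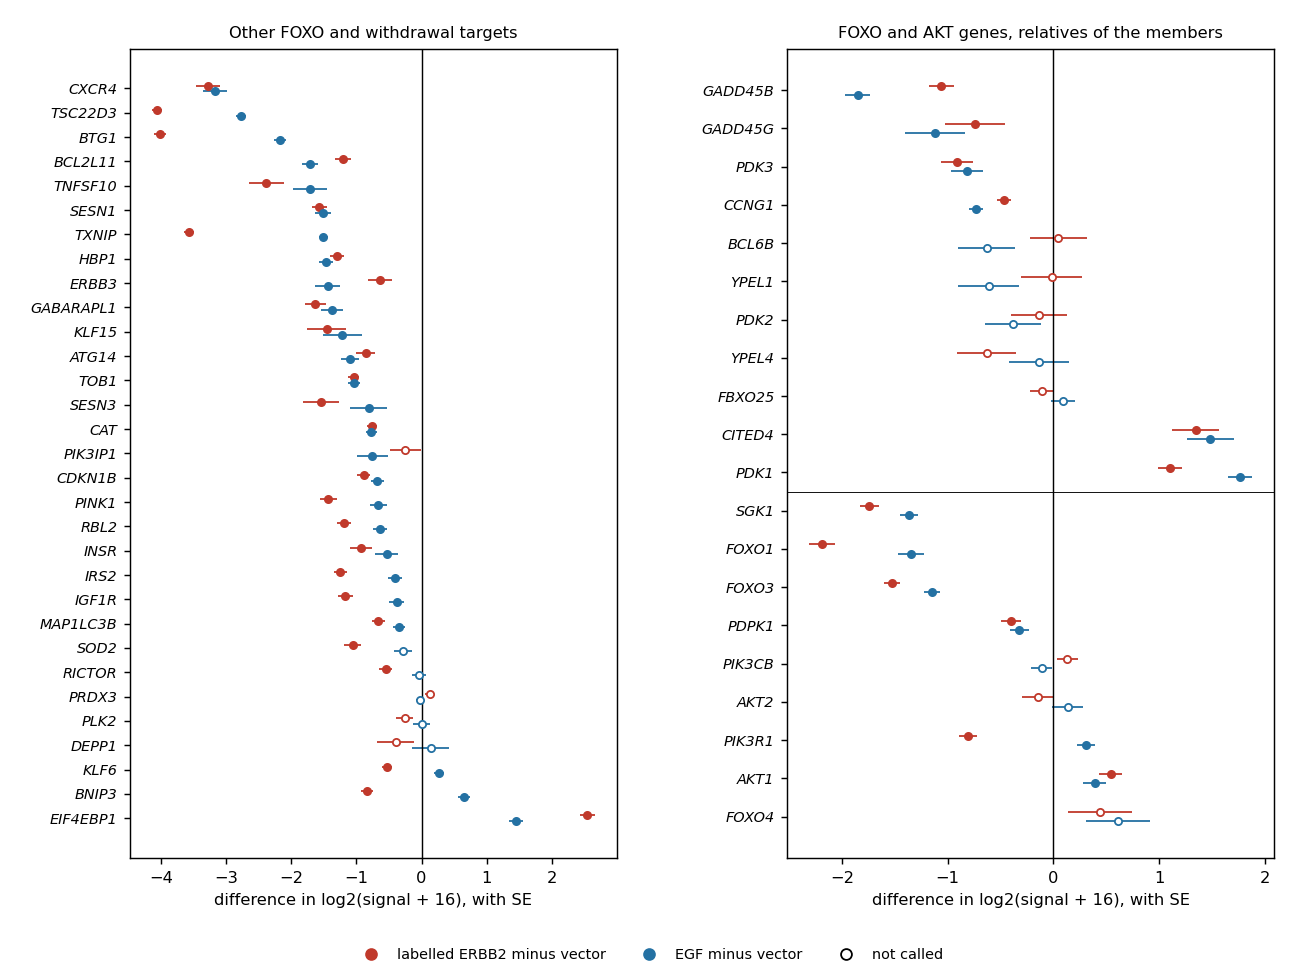
Log2 change against vector, with SE, of 31 other FOXO and withdrawal targets (left), and of 11 relatives of the members (right, above the line) and 9 FOXO and AKT pathway genes (right, below the line); red is labelled ERBB2, blue is EGF and open points were not called. Most of the left panel lies below 0, with EIF4EBP1 at 2.55 and 1.45 as its rightmost gene, while CITED4, PDK1 and AKT1 lie above 0 on the right.

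Close relatives of the members did not all share their direction. GADD45B, a relative of GADD45A, fell where GADD45A rose, from 419, 450.2 and 439 in vector to 174, 222 and 208 in labelled ERBB2 and 104, 105 and 119 in EGF arrays, with changes of -1.06 (adjusted p = 4.555e-07) and -1.85 (adjusted p = 5.22e-10). The groups did not overlap, and EGF arrays were the lowest. Of its 3 other probe sets 2 were called lower in each comparison and the remaining one in neither. GADD45G was dim and was called lower in both (-0.74, adjusted p = 0.04324, and -1.12, adjusted p = 0.004977), the first call ending with quantile normalization (-0.69, adjusted p = 0.06314) and with equal array medians (-0.70, adjusted p = 0.0582). That first call was the weakest of 4 lower calls among the relatives in labelled ERBB2, which were 3 to 5 over the alternative settings. They were 3 also with 1 added to the signal, no filter or a stricter one, array weights or a replicate block. The same held without vector replicate 1, vector replicate 2 or labelled ERBB2 replicate 2.

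PDK1, a relative of PDK4 with the same substrate that hypoxia induces, rose while PDK4 fell. Its signals were 146, 128 and 117 in vector, 329, 294 and 273 in labelled ERBB2 and 493, 468 and 480.0 in EGF arrays, with changes of 1.10 (adjusted p = 1.265e-07) and 1.77 (adjusted p = 4.919e-10). PDK3 fell (-0.91 and -0.81), and PDK2 was not called by its representing probe set (-0.13, adjusted p = 0.7407, and -0.38, adjusted p = 0.314), though its other probe set was called higher with EGF. CITED4, a relative of CITED2, rose from 36.1 ± 19.0 to 110.5 ± 14.6 in labelled ERBB2 (1.35) and 123 ± 7.002 (SD, n = 3) with EGF (1.49). CCNG1, the p53-induced relative of CCNG2, changed by -0.47 (adjusted p = 7.184e-06) and -0.73 (adjusted p = 4.718e-08), beside -2.74 and -1.63 for CCNG2. YPEL1 (-0.0155 and -0.61) and YPEL4 (-0.63 and -0.14), with group means of at most 15.3 and 16.4, were called in neither comparison, nor were BCL6B (0.0471 and -0.63) and FBXO25 (-0.11 and 0.0884). In all, 4 of 11 measured relatives were called lower and 2 higher in each comparison. Of all representing probe sets 25.0% were lower and 20.8% higher in labelled ERBB2, and 18.9% and 17.2% with EGF. The median change of the relatives was -0.13 in labelled ERBB2 and -0.61 with EGF, beside -0.0734 and -0.0968 over all. With 11 genes these counts are not read as a result. Adjusted p-values of the 5 relatives called in neither lay between 0.08522 and 0.9756.

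The genes most like the members over the 9 arrays were found by correlation with the mean of the 10 standardized log2 profiles, GADD45A included unturned, among 13716 other genes. They were SGPP2, a sphingosine phosphate phosphatase (r = 0.9964), IL15, a cytokine (0.9955), TSC22D3 (0.9954), SPIRE1, an actin nucleator (0.9945), and FOXO3 (0.9945). SGPP2 went from 2348 ± 114 in vector to 668 ± 28.5 (SD, n = 3) in labelled ERBB2 and 959.8 ± 43.7 with EGF, and IL15 from 223 ± 15.1 to 42.7 ± 6.37 and 75.0 ± 2.75. All 5 were highest in vector and lowest in labelled ERBB2. The 9 arrays share their 3 group means, and 403 of the 13716 genes had r above 0.95, so such likeness is common here.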

How the data were processed

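Total RNA of MCF10A cells was measured on 9 arrays, 3 per group, grouped by the sample titles. Each probe set has 1 deposited intensity per array, on a linear scale, and the submitters' processing notes name MAS5 without a version. The mean after trimming the extremes was 100.03 as an average over the 9 arrays. Scaling of each array as a whole was assumed from it and can hide a shift of many genes. Detection calls were not used here, and 44.1% to 50.6% of probe sets read under 16 on an array. By GEO's platform annotation, 41097 probe sets have 1 gene symbol, 1801 have several and 11777 have none, and only the first kind was named.

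The values were analysed as log2(signal + 16). Without the 62 controls, the test took the 32768 probe sets (13726 genes) whose mean exceeded the 40th percentile. limma 3.58.1 in R 4.3.3 (lmFit, eBayes with a variance trend) fitted 1 model of group means with 6 residual degrees of freedom, tested on simulated data first, and a call needs an adjusted p-value under 0.05. A single gene with 3 against 3 arrays could not go below an exact permutation p of 0.1. No array duplicated another (r at most 0.9824).

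The members and all gene lists were chosen with earlier results of these data known. Named were the members with all their probe sets, up to 3 called genes per list, direction and comparison, all relatives, and the 5 genes with the most alike profile. Alternatives were other pseudocounts, filters and scalings, no trend, array weights, only the groups compared, a replicate block, leaving out each array, and other probe sets of a gene.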

Additional observations from a re-analysis of the deposited data

How the results depend on the processing

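Each member had 20 alternatives (19 for YPEL2, which the filter at the 60th percentile left out), not counting its other single probe sets. Against vector, all of these kept the direction and the call of every member in the arrays labelled ERBB2. With EGF they did so for every member but YPEL2 at a pseudocount of 1. Of the single probe sets, FBXO32 232729_at, KLHL24 206551_x_at and CCNG2 1555056_at were not called in labelled ERBB2, nor was CCNG2 1555056_at with EGF. Ranges over the alternatives leave single probe sets out. Counts of called probe sets stayed within 1.5 times, from 11338 to 12883 in labelled ERBB2 against vector, 7717 to 10196 in EGF against vector and 6157 to 8112 in labelled ERBB2 against EGF. Called members numbered 9 to 10, 9 to 10 and 4 to 6. With equal array medians higher calls made up 67.5% of calls with EGF (44.8% as deposited) and 31.8% in labelled ERBB2 against EGF (48.8%), and the median change of all probe sets with EGF was 0.0524 in place of -0.11, so small changes are relative to the authors' scaling. Over the alternatives the change of FBXO32 lay between -5.40 and -3.15 in labelled ERBB2 and between -4.68 and -2.98 with EGF, with the deeper end at a pseudocount of 1 and the other as the mean of its 7 probe sets.

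The change of CCNG2 lay between -2.87 and -1.45 in labelled ERBB2 and between -1.75 and -1.07 with EGF. Between labelled ERBB2 and EGF, the FBXO32 difference was also called with a pseudocount of 1 (-0.72, adjusted p = 0.04738), the 60th percentile filter (0.04444), quantile normalization (0.02688), equal medians (0.0168) and the replicate block (0.0462). BCL6 lost its call without a trend (adjusted p = 0.1031) and as the mean of its probe sets (0.1252). KLHL24 lay between -0.1337 and 0.0294 when 1 array was left out and turned sign without EGF replicate 2 (adjusted p = 0.9361). Single probe sets turned sign in FBXO32 (225801_at 0.0264, 232729_at 0.45, 241762_at 0.0999), PDK4 (205960_at 0.0723), CCNG2 (1555056_at 0.16, 228081_at 0.071) and KLHL24 (206551_x_at 0.25, 242088_at 0.0844), and in labelled ERBB2 against vector CCNG2 1555056_at (0.0073). None of these turned values was called, and the causes were not tested. Replicate numbers did not pair the arrays, since deviations of same-numbered arrays correlated between -0.0302 and 0.0191 and of others between -0.0404 and 0.044. With the replicate block 12551, 9312 and 7618 probe sets were called instead of 12689, 9445 and 7793, and 10, 10 and 6 members.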

Other observations

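Genes whose products act with the members are given by their counts, beside 25.0% of all representing probe sets called lower and 20.8% higher in the arrays labelled ERBB2, and 18.9% and 17.2% with EGF. With 6 to 9 measured genes a list, a count near those shares is not read as a result. Of 7 measured genes of the pyruvate dehydrogenase complex and its phosphatases, the target of PDK4, 2 were called lower and 2 higher in the arrays labelled ERBB2 (median log2 change 0.0301) and 1 lower and 3 higher with EGF (median 0.0717). Over the alternatives the EGF counts were 0 to 2 lower and 1 to 4 higher, with 1 higher when no variance trend was fitted and 4 at equal array medians. DLAT, the acetyltransferase core, rose from 514 ± 32.4 in vector to 1067 ± 119 (SD, n = 3) in labelled ERBB2 (1.02, limma adjusted p = 2.03e-08) and 779 ± 15.7 with EGF (0.58, adjusted p = 5.776e-05). PDPR, a regulator of the phosphatase, was lower in both comparisons, at -0.61 in labelled ERBB2 (adjusted p = 0.001414) and -0.42 with EGF (adjusted p = 0.02724), the second call ending with equal array medians (-0.26, adjusted p = 0.193). Of 6 ubiquitin ligase core genes, which FBXO32 and KLHL24 need, CUL1, RBX1 and CUL3 rose in labelled ERBB2 by 0.40 (adjusted p = 0.002683), 0.35 (adjusted p = 0.003028) and 0.22 (adjusted p = 0.02684). These 3 higher calls were 1 without a variance trend and 2 without vector replicate 2, vector replicate 3 or labelled ERBB2 replicate 1. The other CUL1 probe set and the 2 other CUL3 probe sets were called in neither comparison with vector. RBX1 had no other probe set past the filter. SKP1 was called lower by its representing probe set (-0.33) and higher by 1 of its 3 others, and that lower call ended with quantile normalization (-0.10, adjusted p = 0.07752). With EGF CUL1 (0.37) and RBX1 (0.24, adjusted p = 0.04965, and 0.1339 with quantile normalization) were called, 1 to 4 genes of the list over the alternatives.

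HIF1A, the hypoxia factor that CITED2 limits, went opposite ways, from 2753, 2660.2 and 2591 in vector to 2027, 1762 and 1799 in labelled ERBB2 (-0.52, adjusted p = 5.082e-06) and 4174, 4154 and 4096 with EGF (0.63, adjusted p = 7.912e-07), with no overlap between the 3 groups. The direct difference was -1.15 (adjusted p = 3.329e-10). TFAP2A, a factor that CITED2 coactivates, was higher in labelled ERBB2 (1.08) and lower with EGF (-0.25, adjusted p = 0.02912). The call with EGF ended with equal array medians (-0.0858, adjusted p = 0.5128). TFAP2C, of the same list, was lower in labelled ERBB2 (-0.57, adjusted p = 0.003139) and not called with EGF (-0.094). Its 1 other probe set was called in neither comparison. CREBBP, the coactivator CBP, changed by -0.95 and -0.51. Among 7 measured BCL6 corepressors and CITED2 partners 3 were lower and 2 higher in labelled ERBB2, and 2 lower and 1 higher with EGF. Of 9 measured p53 targets other than GADD45A, 3 were lower and 1 higher in labelled ERBB2 (median -0.21), and 7 lower and 1 higher with EGF (median -0.76). CDKN1A, which encodes the cyclin kinase inhibitor p21, fell from 852 ± 68.9 to 476 ± 16.7 in labelled ERBB2 (-0.82) and 211 ± 45.1 (SD, n = 3) with EGF (-1.95). FAS, the death receptor, was the single one called higher, in both comparisons (0.26, adjusted p = 0.04288, and 0.06313 with quantile normalization, and 0.65, adjusted p = 3.842e-05). Its call in labelled ERBB2 also ended without the filter, without a variance trend, with only the groups compared and with the replicate block. The same held without vector replicate 2 or 3, labelled ERBB2 replicate 1 or 2, or EGF replicate 3.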
